A study of Mus musculus with 16 samples.

Results

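Extracellular matrix genes other than the collagens were followed through the early mouse face. The 9 genes are Vcan, Hapln1, Fbn1, Fbn2, Postn, Lum, Sparc, Fstl1 and Spon1, chosen by symbol out of 15876 genes, and each stood on 1 row of the deposited tables. They were picked with earlier results of the same libraries in view, among them large differences between single libraries in the E8.5 neural tube and mesoderm and between the jaw arches. What follows therefore describes how they vary and is no independent evidence that matrix genes vary. Total RNA was sequenced from small regions of CD1 (outbred strain) embryos, untreated and without any genetic change given in the labels. The 16 libraries hold 1 per region and stage, and the number of embryos pooled in each is not given. Where regions serve as replicates, p-values measure the spread between these libraries.

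Libraries were placed in 3 tissue classes. Mesenchyme, the loose tissue of neural crest and mesoderm that fills the face, had 8 libraries: mesoderm at E8.5 (embryonic day 8.5), at E9.5 cranial mesenchyme with the mandibular and maxillary arches, and both arches again at E10.5 with the lateral and medial nasal prominences. Neural epithelium had 6, namely floor plate, non-floor plate and caudal brain at E8.5, and at E10.5 the libraries titled lateral prominence, central and dorsal control. Surface ectoderm had 2, the E9.5 epidermal ectoderm and the E10.5 olfactory pit. The labels do not say whether arches and prominences were freed of their surface ectoderm, and 0 to 3 of 12 surface epithelium markers were above their lowest value in mesenchyme libraries. In bulk RNA fewer cells of a type and less RNA per cell cannot be told apart.

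The matrix is the network of proteins and sugars that cells secrete around themselves. In the embryonic head it swells the space through which neural crest cells migrate, anchors growth factors and later becomes the scaffold of cartilage, bone and tendon. The hyaluronan network (Vcan, Hapln1), the microfibrils (Fbn1, Fbn2), proteins bound to collagen fibrils (Postn, Lum) and secreted glycoproteins that act on cells and growth factors (Sparc, Fstl1, Spon1) are its parts described here.

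The deposited values were ratios of each gene to its own median over the 16 libraries. Levels below are multiples of a gene's lowest value over the 16 libraries, so 1 is the lowest level, and levels do not compare genes with each other. Each of the 9 genes had its lowest value in at least 2 libraries, called its floor here. A library at the floor is listed there, and how far under it the transcript lay is not known. Compared with all libraries, the median gene in log2 lay between -0.81 and -0.05 in 6 of the 8 E10.5 libraries and between 0.01 and 0.38 in the other 10, so fitted folds are given relative to the median gene. This also moves floor entries, so libraries tied at the floor differ in the fit. Vcan, at the floor in the maxillary arch at both stages, was 2.18-fold higher at E10.5 on that scale.

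Depth is known only as more than 40000000 reads of 50 bases per library, from the labels. The labels were checked against marker genes. Of 12 mesenchyme markers, 8 to 11 were above the floor in 7 mesenchyme libraries, and Twist1, a mesenchyme transcription factor, had levels from 16.7 to 28.5 there. Of 10 neural markers, 6 to 10 were above the floor in neural libraries, with 6 in E8.5 caudal brain. E8.5 mesoderm, E9.5 cranial mesenchyme and the E9.5 maxillary arch each had 7. Mean log2 levels of these markers were 1.04, 0.55 and 1.37 there, and 1.66 to 3.79 in neural libraries. The library labelled medial nasal prominence went against its label, with 2 of 12 mesenchyme markers above the floor, Twist1 and Prrx1 at the floor and 10 of 10 neural markers above it. Class comparisons of the 9 genes are given with and without it. E9.5 epidermal ectoderm held 12 of 12 surface epithelium markers and also 7 of 12 mesenchyme and 8 of 10 neural markers above the floor. The tables of the libraries titled central and dorsal control carry each other's abbreviation as column heading, so which of these regions is which is uncertain, while both are neural.

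**Figure D1:**
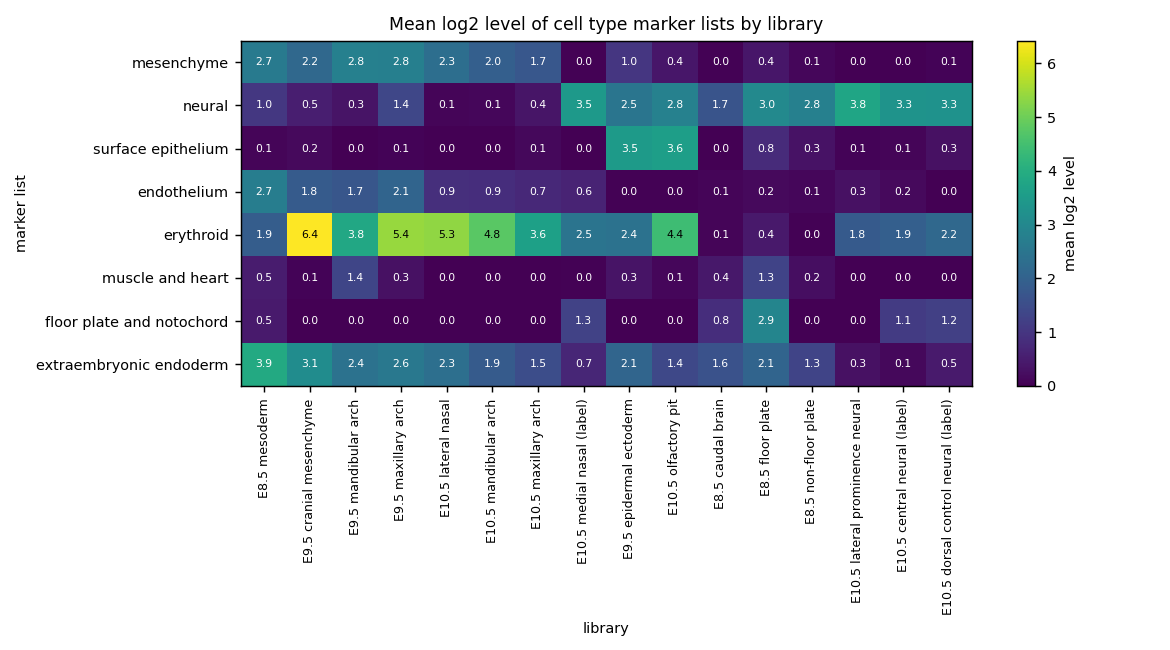
Mean log2 level of 8 fixed marker lists (rows) in each of the 16 libraries (columns, mesenchyme first, then ectoderm, then neural), with the value written in each cell. The library labelled medial nasal prominence has a mean of 0.04 for mesenchyme and 3.46 for neural markers.

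Vcan encodes versican, a large chondroitin sulphate proteoglycan that binds hyaluronan. Vcan was above the floor in all 6 neural libraries. At E8.5 its level was 41.8 in caudal brain, 21.0 in floor plate and 15.3 in non-floor plate. At E10.5 it was 41.7 in lateral prominence, 31.4 in the library titled central and 41.5 in that titled dorsal control. As deposited, neural levels thus stayed within a 3-fold span over both stages. Relative to the median gene they were 15.2 to 35.7 at E8.5 and 37.2 to 46.7 at E10.5. Mesenchyme held both extremes. E8.5 mesoderm had the highest level of the series, 157.8, and the E10.5 mandibular arch the next, 78.6. Cranial mesenchyme and both arches at E9.5, and the lateral nasal prominence and maxillary arch at E10.5, were at the floor, and the library labelled medial nasal prominence had 20.9. Ectoderm was split in the same way, with the floor in E9.5 epidermal ectoderm and 29.5 in the E10.5 olfactory pit. All 4 libraries of E9.5 were therefore listed at the floor, whatever their tissue.

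Hapln1 encodes the link protein that fastens versican and other proteoglycans to hyaluronan. Its level was 42.6 in E8.5 mesoderm. At E9.5 it was 6.25 in cranial mesenchyme, 12.1 in the mandibular and 10.7 in the maxillary arch. At E10.5 it was 3.57 in the maxillary arch and 1.52 in the mandibular arch, and both libraries labelled nasal prominence were at the floor. The E9.5 and E10.5 ranges of mesenchyme did not overlap as deposited, but did relative to the median gene, where the E10.5 maxillary arch (6.24) was above E9.5 cranial mesenchyme (5.58). The single E8.5 library lay above both stages on either scale. How many of all genes had separate stage ranges was not worked out. Outside mesenchyme, E9.5 epidermal ectoderm had 7.03 and E8.5 floor plate 4.38, and the other 6 libraries were at the floor.

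Hapln1 and Vcan are direct neighbours on chromosome 13. They lie on opposite strands with their 3′ ends facing, 43.7 kb apart, and GENCODE M21 (build GRCm38) places 0 genes between them. Of the 8 libraries with Hapln1 above the floor, all 4 of E9.5 and the E10.5 maxillary arch had Vcan listed at the floor, and conversely 5 of 6 neural libraries had Vcan at 15.3 or more with Hapln1 at the floor. Both genes were above the floor in E8.5 mesoderm, floor plate and the E10.5 mandibular arch. E8.5 mesoderm held the highest level of each, 157.8 for Vcan and 42.6 for Hapln1. A Vcan floor entry cannot be told from a value that was not estimated. The 250 bases before the start of each gene are shown so that these neighbours can be compared. The Hapln1 window is chr13:89540386-89540635 on the plus strand and the Vcan window chr13:89742513-89742762 on the minus strand, both from the RefSeq promoter table of build GRCm38.p6, while the deposited values were made on mm9. Capitals mark matches on either strand to the TATA box TATAAA, the box known as CCAAT, the Sp1-type box GGGCGG, the TEAD motif CATTCC, the Twist-type E-box CATCTG and the AP-1 motif TGANTCA.

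Hapln1: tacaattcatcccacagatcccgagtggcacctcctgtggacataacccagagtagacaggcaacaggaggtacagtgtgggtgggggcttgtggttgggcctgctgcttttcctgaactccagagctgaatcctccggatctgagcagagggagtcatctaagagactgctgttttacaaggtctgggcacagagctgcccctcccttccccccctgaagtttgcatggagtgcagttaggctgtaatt
Vcan: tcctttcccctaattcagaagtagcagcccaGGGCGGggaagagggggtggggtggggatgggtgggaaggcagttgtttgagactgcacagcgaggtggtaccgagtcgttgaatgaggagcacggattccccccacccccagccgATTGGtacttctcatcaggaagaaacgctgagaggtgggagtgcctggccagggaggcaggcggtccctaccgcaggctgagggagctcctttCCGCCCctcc

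The Vcan window held 1 match to CCAAT and 2 to GGGCGG and had 62.4% G and C, and the Hapln1 window held 0 matches to any of the 6 and had 54.4%. Among 32851 windows of the same length in the table, 33.8% held CCAAT and 32.7% held GGGCGG, and the median G and C content was 52.4%.

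Fibrillin 1, the product of Fbn1, forms the beaded microfibrils that carry elastin and hold latent TGF-beta in the matrix. The 8 mesenchyme libraries had Fbn1 levels from 1.50 to 5.07 with a median of 2.67. Its highest levels were 5.07 in the E9.5 mandibular arch, 3.22 in the E9.5 maxillary arch, 3.15 in E8.5 mesoderm and 2.90 in E9.5 cranial mesenchyme. At E10.5 it was 2.44 in the lateral nasal prominence, 2.33 in the mandibular and 1.53 in the maxillary arch, while the library labelled medial nasal prominence had 1.50. Neural levels ran from the floor to 1.49, with 3 of 6 libraries at the floor, and ectoderm had 1.35 at E9.5 and 1.05 at E10.5. As deposited, Fbn1 was the only one of the 9 genes with every mesenchyme library above every neural library, by a narrow margin between the library labelled medial nasal prominence (1.50) and that titled dorsal control (1.49). Relative to the median gene the former was at 1.28, below the libraries titled dorsal control (1.54) and central (1.71), so the order did not hold there, while the other 7 mesenchyme libraries (2.43 to 4.23) were above all neural ones. Of 12851 genes tested, 0.241% had that order as deposited, and 0.817% without the library labelled medial nasal prominence.

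Its 250 bases upstream (chr2:125506439-125506688, minus strand, GRCm38.p6, RefSeq) are shown because the Fbn1 call given below was lost under the fewest alternatives, with capitals as above.

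Fbn1: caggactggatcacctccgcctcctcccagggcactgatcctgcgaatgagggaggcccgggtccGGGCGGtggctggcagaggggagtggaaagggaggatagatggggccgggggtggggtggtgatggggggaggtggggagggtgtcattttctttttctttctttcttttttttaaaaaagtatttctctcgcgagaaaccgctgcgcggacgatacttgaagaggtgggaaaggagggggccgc

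This window held 1 GGGCGG and no match to the other 5 motifs.

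Fbn2 encodes fibrillin 2, which is laid down in microfibrils mainly before birth. Fbn2 was above the floor in all 8 mesenchyme libraries. Its level was 17.7 in E8.5 mesoderm, between 9.48 and 12.9 in the 3 mesenchyme libraries of E9.5, and 7.06 in the lateral nasal prominence, 6.05 in the mandibular arch and 3.63 in the maxillary arch of E10.5. The library labelled medial nasal prominence had 2.03. Stage by stage these ranges did not overlap as deposited, an order whose share over all genes was not worked out. Relative to the median gene the E10.5 mandibular arch (9.66) and lateral nasal prominence (9.04) lay within the E9.5 range of 8.37 to 10.4. The E10.5 maxillary arch (6.36) lay below it. Both ectoderm libraries had intermediate values, 4.73 at E9.5 and 6.70 at E10.5. Neural tissue was divided, with 9.24 in E8.5 floor plate, 8.70 in non-floor plate and 5.80 in the E10.5 library titled dorsal control, against 1.02 in caudal brain and the floor in the other 2 E10.5 libraries. Fbn2 thus reached mesenchyme levels in the floor plate and non-floor plate libraries, where Fbn1 was at or near its floor.

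Postn encodes periostin, a matricellular protein of collagen-rich tissue that binds collagen and tenascin. It was at the floor in 10 of 16 libraries. The highest level was in E8.5 floor plate, 32.5, and the other 5 neural libraries were at the floor. In the maxillary arch it was 8.27 at E9.5 and 17.0 at E10.5, and in the mandibular arch 1.56 and 3.80. Within each stage the maxillary library was therefore the higher, and within each arch the E10.5 library was. E9.5 epidermal ectoderm had 13.1, while E8.5 mesoderm, cranial mesenchyme, both libraries labelled nasal prominence and the olfactory pit were at the floor.

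The floor plate library also carried markers of other tissues. Acta2, a smooth muscle actin, had a level of 21.2 there and Tnnt2, a heart troponin, 4.67, with 4 of 6 muscle and heart markers above the floor. The summed level of that list was 30.8 in floor plate and the range over the 6 neural libraries was 6 to 30.8. Snai2 was at 11.1 and Msx1 at 2.18 as the 2 of 12 mesenchyme markers above the floor, while Twist1 and Prrx1 were at the floor. Krt19 was at 8.69. Their part in the Postn, Lum and Hapln1 values of this library was not tested.

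RefSeq lists 2 starts of Postn. The 250 bases before the second, chr3:54360857-54361106 (plus strand, GRCm38.p6), are shown. Of the 7 windows searched for these genes, it is the only one with a match to TATAAA.

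Postn: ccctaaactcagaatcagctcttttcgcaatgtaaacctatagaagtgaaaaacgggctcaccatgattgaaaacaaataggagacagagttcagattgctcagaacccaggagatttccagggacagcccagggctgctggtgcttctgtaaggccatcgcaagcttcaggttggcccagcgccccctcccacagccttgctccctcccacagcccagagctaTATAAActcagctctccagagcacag

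TATAAA began 26 bases before the start on the gene's strand. Of all windows 12.4% held this motif on either strand. Promoter windows of 6 of the 9 genes were searched, and none of Fbn2, Lum or Spon1. Fstl1 held GGGCGG at 2 places and Sparc held CATCTG once, on the opposite strand.

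Lum encodes lumican, a small leucine-rich proteoglycan that spaces collagen fibrils. Its level was 21.7 in E8.5 mesoderm and 17.7 in E9.5 cranial mesenchyme, against 2.02 and 1.63 in the E9.5 mandibular and maxillary arches. At E10.5 the maxillary arch had 2.45 and the other 3 mesenchyme libraries were at the floor. E9.5 epidermal ectoderm had 10.7 and E8.5 floor plate 2.22, while the olfactory pit and 5 of 6 neural libraries were at the floor. Lum was thus highest in E8.5 mesoderm, E9.5 cranial mesenchyme and E9.5 epidermal ectoderm, and at most 2.45 in the arches of either stage.

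Sparc encodes osteonectin, which binds collagen and is abundant in basement membranes. It was above the floor in all 8 mesenchyme and both ectoderm libraries. E8.5 mesoderm had a level of 60.9, the 3 mesenchyme libraries of E9.5 lay between 25.8 and 26.6, and E10.5 had 21.7 in the lateral nasal prominence, 11.7 in the mandibular and 6.79 in the maxillary arch. The library labelled medial nasal prominence had the highest level of all, 82.9. Without it, mesenchyme levels as deposited fell into separate ranges from E8.5 down to E10.5, and the share of all genes that did so was not worked out. Relative to the median gene the Sparc levels overlapped, with the E10.5 lateral nasal prominence at 27.8 above E9.5 mesenchyme at 20.7 to 23.7. In neural tissue, floor plate and non-floor plate at E8.5 were at the floor and caudal brain was at 26.9, and at E10.5 the levels were 14.7, 19.0 and 71.8 in the libraries titled lateral prominence, central and dorsal control. Ectoderm had 16.5 at E9.5 and 19.2 at E10.5. Of 4 markers of extraembryonic endoderm, 2 to 4 were above the floor in mesenchyme libraries, with summed levels from 7.24 to 79.8. In neural libraries these were 1 to 3 and 4.49 to 25.4. Over the 16 libraries their mean correlated at r = 0.05 with Sparc. It had 0.81 with Hapln1, 0.75 with Fbn2, 0.74 with Lum and 0.66 with Fbn1, and 0.19 or less with Postn, Vcan, Fstl1 and Spon1. The part of such cells in the values of the matrix genes was not tested.

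Fstl1 encodes follistatin-like 1, a secreted relative of Sparc that can bind BMP ligands. The E8.5 neural libraries lay close together, at 12.7 in caudal brain, 15.0 in floor plate and 12.2 in non-floor plate. At E10.5 the library titled dorsal control had 22.5 and that titled central 13.7, while lateral prominence was at the floor. In mesenchyme, E8.5 mesoderm had 48.3, and the mandibular arch had 31.3, then 11.7 a day later, at E10.5. The maxillary arch was at the floor at both stages, as were cranial mesenchyme and the lateral nasal prominence, and the library labelled medial nasal prominence had 19.7. Ectoderm had 16.2 at E9.5 and 9.30 at E10.5.

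**Figure D2:**
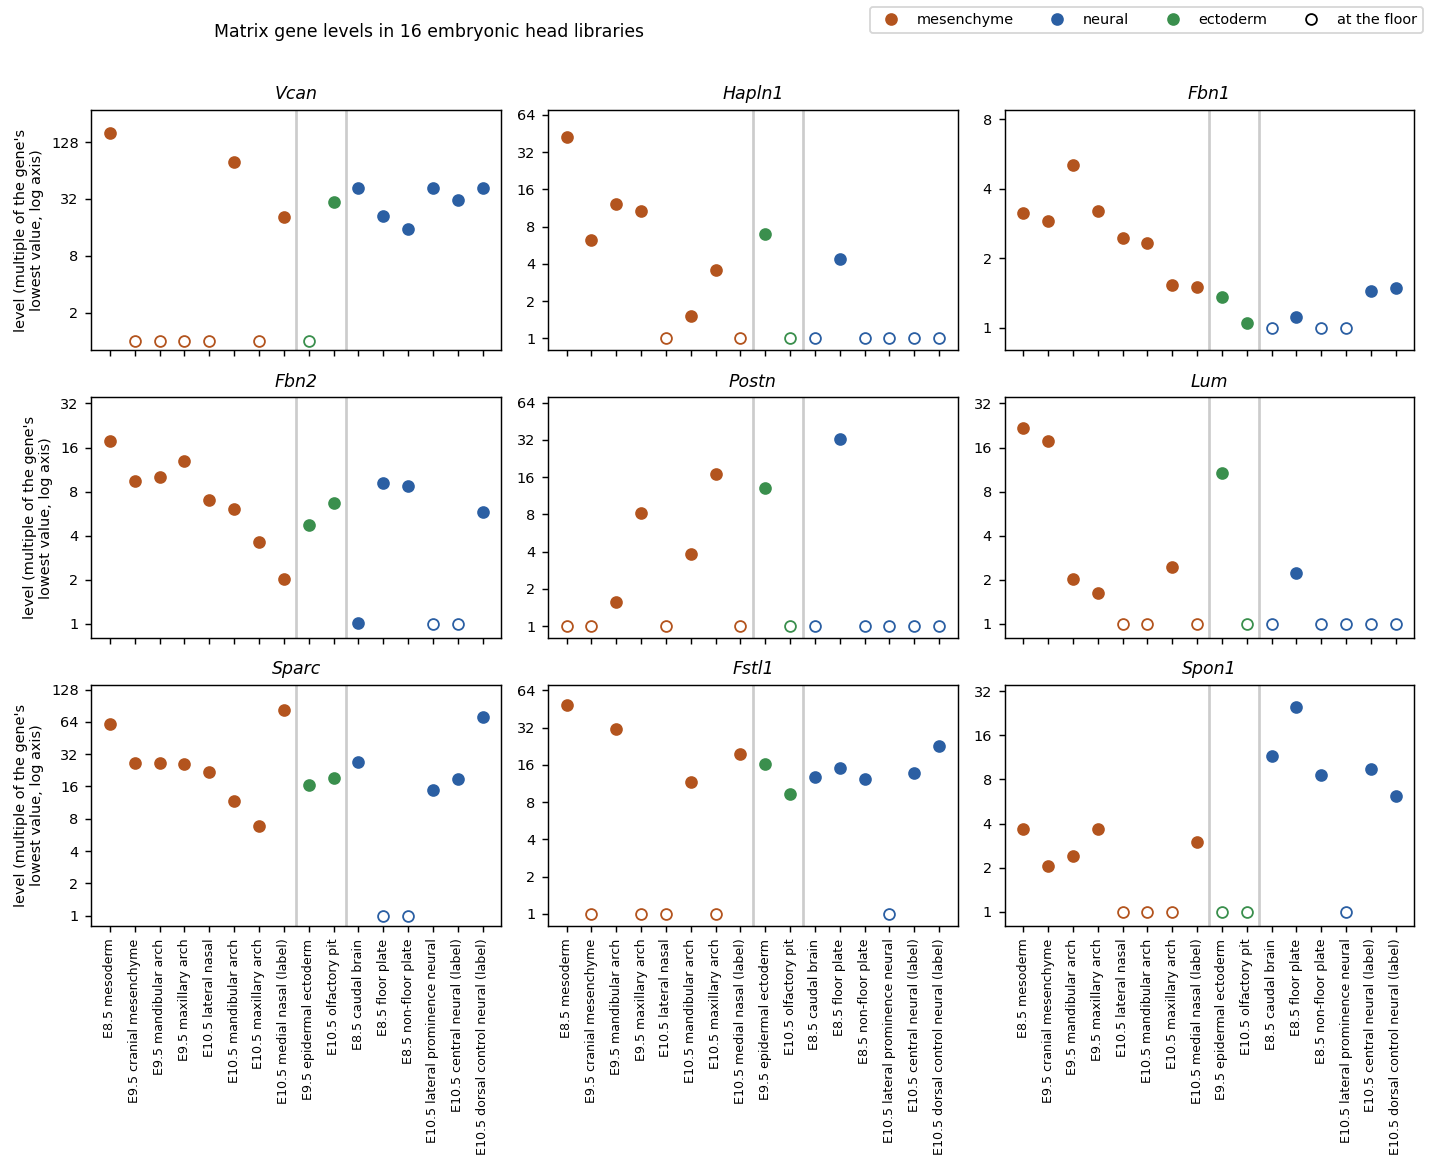
Level of each of the 9 genes (multiple of the gene's lowest value, log axis) in the 16 libraries, mesenchyme on the left, ectoderm in the middle and neural epithelium on the right, each in order of stage. Open points are at the floor. Vcan jumps from the floor to 15.3 or more, while Fbn1 spans 1 to 5.07 without a gap.

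Vcan, Fstl1 and Sparc shared a feature that the other 6 genes lacked. No library had a Vcan level between the floor and 15.3, a Fstl1 level between the floor and 9.30, or a Sparc level between the floor and 6.79. Among 2024 genes with a floor, a highest level of at least 5 and at least 3 libraries above the floor, the median gene had its lowest level above the floor at 1.21, and 22 (1.09%) had none between the floor and 5. In Fbn1, Fbn2, Hapln1, Postn, Lum and Spon1 that lowest level lay between 1.02 and 2.04. A value that was not estimated and a low value look the same in these tables, so for Vcan, Fstl1 and Sparc a floor entry is reported only as listed.

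**Figure D3:**
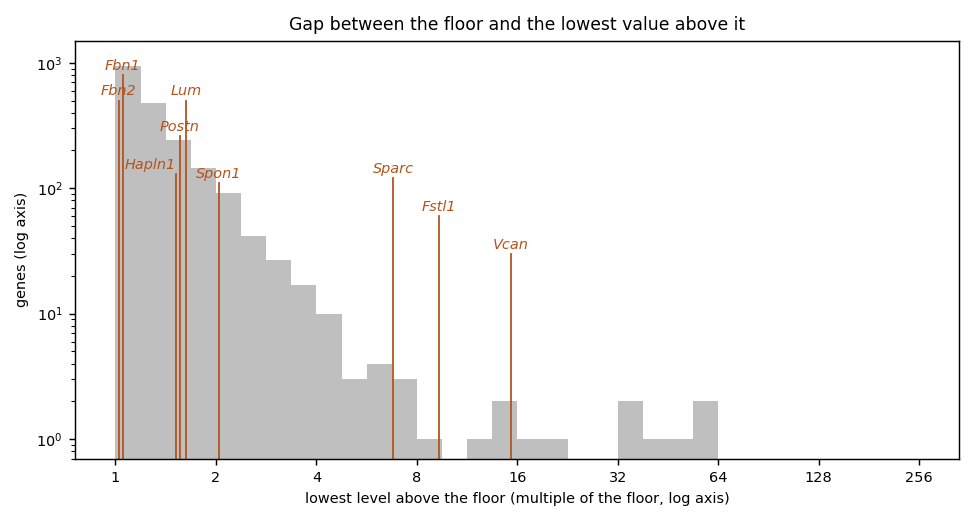
Number of genes (log axis) by the lowest level above their floor (log axis) for 2024 genes, with orange lines at the 9 matrix genes. Sparc, Fstl1 and Vcan stand at 6.79, 9.30 and 15.3, past nearly all of the histogram.

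Spon1 encodes F-spondin, a secreted protein first known from the floor plate, where it guides commissural axons. Its highest level, 25.1, was in E8.5 floor plate, and caudal brain and non-floor plate had 11.5 and 8.63. At E10.5 the libraries titled central and dorsal control had 9.44 and 6.18 and lateral prominence was at the floor. Mesenchyme levels were at most 3.66. They were 3.66 in E8.5 mesoderm, 2.04 in cranial mesenchyme of E9.5 and 2.40 and 3.64 in its mandibular and maxillary arch, and at the floor in the lateral nasal prominence and both arches of E10.5. The library labelled medial nasal prominence had 3.01, and both ectoderm libraries were at the floor. With the exception of lateral prominence, each neural library was above each mesenchyme and ectoderm library, an order whose share over all genes was not worked out. Shh and Foxa2, which define the floor plate, were at 6.36 and 9.18 in the floor plate library. Foxa2 was at the floor in the other 15 libraries, while Shh was higher in those titled dorsal control (12.4), medial nasal prominence (11.6) and central (7.04).

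Tissue classes were then compared in 1 limma fit over all libraries, in which calls required 2-fold or more together with an adjusted p below 0.05. For mesenchyme against neural epithelium over all stages, 2 of the 9 genes were called higher, Fbn1 and Hapln1, and 1 lower, Spon1. Of 12851 genes, 2.55% were called higher and 1.75% lower. The median log2 fold of the 9 genes was 1.20 and that of all genes tested 0.01. Because the 9 genes were chosen with such differences known, nothing is read from that count.

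Fbn1 rose 2.30-fold in mesenchyme (log2 fold 1.20, SE 0.27, adjusted p = 0.0197, limma). Without the library labelled medial nasal prominence it was 2.48-fold higher (adjusted p = 0.00119), where 3.49% of all genes were called higher and 2.68% lower, and Hapln1 and Spon1 were called too. The call ended without the E10.5 lateral prominence library (log2 fold 1.11, adjusted p = 0.0541). Hapln1 rose 6.30-fold (log2 fold 2.65, SE 0.66, adjusted p = 0.0313), with 6 of 8 mesenchyme libraries and 1 of 6 neural libraries above the floor, so the size rests on the floor. Its call ended when any 1 of 7 libraries was left out, namely E8.5 mesoderm, caudal brain, non-floor plate, the E10.5 mandibular arch or any E10.5 neural library (adjusted p from 0.055 to 0.114). Without E8.5 mesoderm its log2 fold was 1.64. Spon1 fell by 1.71 on the log2 scale (SE 0.47, adjusted p = 0.0461), and this call ended without any 1 of 11 libraries, that is, all except E8.5 mesoderm, both ectoderm libraries, E10.5 lateral prominence and the library labelled medial nasal prominence (adjusted p from 0.0551 to 0.101), or with values as deposited (adjusted p = 0.111). The other 6 genes were not called. Lum (log2 fold 1.98, SE 0.69), Sparc (1.73, SE 0.74) and Fbn2 (1.66, SE 0.63) had positive estimates with adjusted p from 0.109 to 0.190, and Sparc was called when caudal brain was left out (log2 fold 2.51, SE 0.47, adjusted p = 0.0163). Postn (0.00, SE 1.13), Fstl1 (-0.24, SE 1.09) and Vcan (-1.65, SE 1.36) had standard errors near or above 1, as their levels alternated between high and the floor within classes.

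At E10.5 alone 0 of the 9 genes were called between mesenchyme and neural epithelium, with 1 at an unadjusted p under 0.05, and limma called 0.0856% of all genes. Without the library labelled medial nasal prominence Fbn1 was called, 2.20-fold higher in mesenchyme (log2 fold 1.14, SE 0.26, adjusted p = 0.0252), and 3.33% of all genes were called higher. That library had a Fbn1 level of 1.50, next to 1.44 and 1.49 in the neural libraries titled central and dorsal control.

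**Figure D4:**
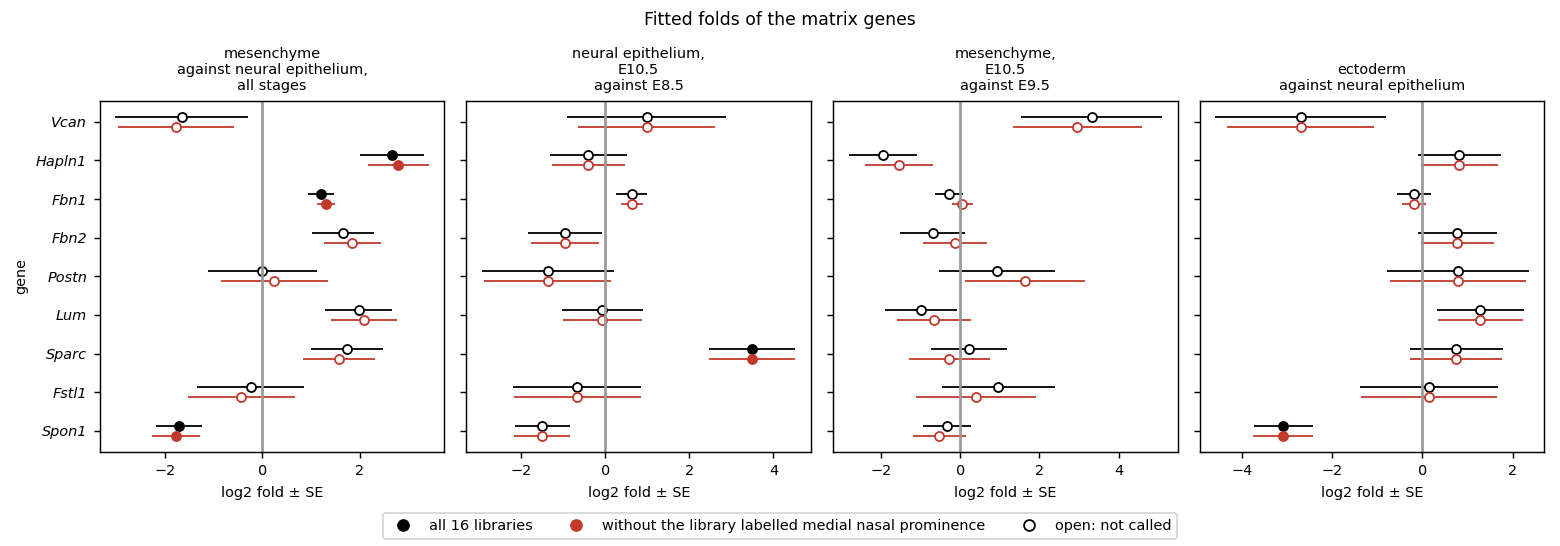
Log2 fold with its standard error from limma for the 9 genes in 4 comparisons, with all 16 libraries (black) and without the library labelled medial nasal prominence (red). Filled points were called, and in the first panel these are Hapln1, Fbn1 and Spon1 with both sets of libraries.

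Vessel and blood markers moved with the same classes. The 10 endothelium markers had summed levels of 18.4 to 89.5 in the 8 mesenchyme libraries, with 5 to 10 above the floor, against 10 to 13.9 in neural libraries, with 0 to 3 above it. Cdh5, which defines endothelium, was at 15.9 in E8.5 mesoderm, 7.33 to 9.38 in E9.5 mesenchyme and at most 3.32 in the other mesenchyme libraries, and it was at the floor in 5 of 6 neural libraries. The 8 erythroid markers summed to 86.0 to 4338 in mesenchyme and to 8.17 to 112 in neural tissue. As deposited, the 4 libraries with the highest Fbn1 levels were E8.5 mesoderm and the 3 mesenchyme libraries of E9.5. They also had the 4 highest endothelium sums, from 47.8 to 89.5. Relative to the median gene the order of Fbn1 changed. Fbn1 then stood at 3.73 (mandibular), 3.13 (lateral nasal) and 2.68 (maxillary) in E10.5 libraries. On the same scale E8.5 mesoderm was at 2.43 and E9.5 mesenchyme at 2.59 to 4.23. The endothelium sums, 21.4 to 22.5 in those E10.5 libraries, are as deposited. They were not put on that scale, so the match was not compared there. Over the 16 libraries Hapln1 correlated at r = 0.73 with mesenchyme and 0.79 with endothelium markers, and Fbn1 at 0.905 and 0.87. With extraembryonic endoderm markers Hapln1 had 0.81, its highest among the 8 marker lists, and Fbn1 had 0.66. With erythroid markers they had 0.21 and 0.64. In epidermal ectoderm Cdh5 was at the floor while Hapln1 was at 7.03, and 7 of 12 mesenchyme markers were above their floor. The part of vessel, blood and extraembryonic endoderm cells in the Fbn1 and Hapln1 results was not tested.

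**Figure D5:**
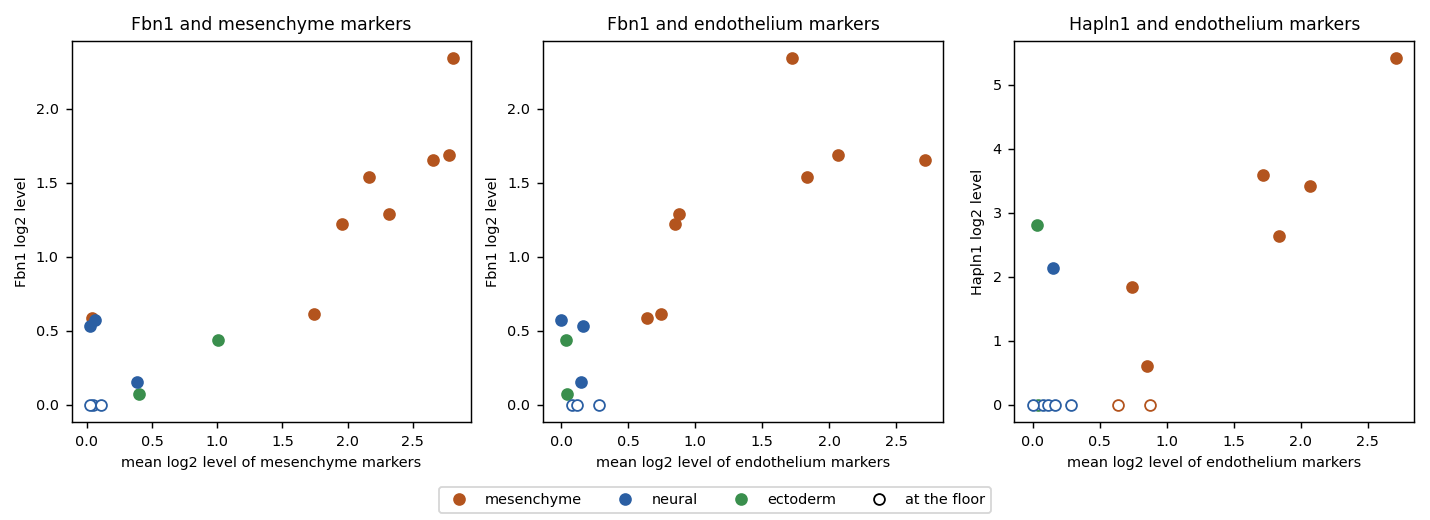
Log2 level of Fbn1 or Hapln1 (vertical) against the mean log2 level of mesenchyme or endothelium markers (horizontal), 1 point per library, coloured by tissue class and open at the floor. In E8.5 mesoderm, farthest right in both endothelium panels, Hapln1 had its highest level, 42.6, and Fbn1 3.15.

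Stage was compared within each class. In neural epithelium 1 of 9 genes, Sparc, was called higher at E10.5 than at E8.5 and 0 lower, where 4.58% of all genes were called higher and 6.03% lower. Sparc rose 11.3-fold (log2 fold 3.49, SE 1.03, adjusted p = 0.0424), with caudal brain (26.9) inside the E10.5 range of 14.7 to 71.8 and the other 2 E8.5 libraries at the floor. The size and the call thus rest on those 2 floor entries, which cannot be told from values that were not estimated. The call ended without any 1 of 10 libraries, namely floor plate, non-floor plate, any E10.5 neural or E9.5 mesenchyme library, the lateral nasal prominence or the E10.5 mandibular arch (adjusted p from 0.0531 to 0.160), and with values as deposited (adjusted p = 0.115). Without caudal brain the log2 fold was 5.04. Without the library labelled medial nasal prominence Sparc remained called (adjusted p = 0.0341), where 6.18% of all genes were called higher. Spon1 had a negative estimate in the same comparison (log2 fold -1.49, SE 0.65, adjusted p = 0.147) and Fbn1 a positive one (0.63, SE 0.37, adjusted p = 0.284).

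In mesenchyme 0 of 9 genes were called between E10.5 and E9.5, with 1 at an unadjusted p under 0.05, and limma called 4.55% of all genes. Hapln1 had a log2 fold of -1.96 (SE 0.86, adjusted p = 0.142) relative to the median gene, and with values as deposited it was called (log2 fold -2.61, SE 0.79, adjusted p = 0.0452). With those values 1611 of 12851 genes were called lower at E10.5 and 58 higher. Without the library labelled medial nasal prominence 0 of 9 were called by limma, and 14.2% of all genes were. The median gene lay between -0.81 and -0.36 in the E10.5 arches and lateral nasal prominence and between 0.16 and 0.31 in E9.5 mesenchyme. Fbn2 had a log2 fold of -0.70 (SE 0.83) and Sparc 0.21 (SE 0.96) relative to the median gene, and without the library labelled medial nasal prominence these were -0.14 (SE 0.81) and -0.27 (SE 1.02). Vcan had 3.32 (SE 1.78, adjusted p = 0.220), from 2 of 4 E10.5 libraries above the floor against 0 of 3 at E9.5. With values as deposited, where floor entries stay tied, its log2 fold was 2.67 (SE 1.64).

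Whether the change from E8.5 to E10.5 differed between mesenchyme and neural epithelium was tested as an interaction, with E8.5 mesoderm as the only early mesenchyme library, which was assumed to vary like the other groups. Of all genes 0% were called by limma, and 470 of 12851 had an unadjusted p under 0.05. Of the 9 genes 0 were called and 2 had an unadjusted p under 0.05. The estimates were -4.36 (SE 1.75) for Sparc, -3.63 (SE 1.55) for Hapln1 and -3.27 (SE 1.64) for Lum on the log2 scale, each with an adjusted p of 0.946. When the library labelled medial nasal prominence was left out, limma again called 0 genes, and the estimates were -4.85 (SE 1.77), -3.21 (SE 1.49) and -2.95 (SE 1.63).

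Ectoderm was compared with both other classes. Against neural epithelium 1 of 9 genes, Spon1, was called lower and 0 higher, where 0.358% of all genes were called lower and 1.36% higher. Spon1 fell by 3.09 on the log2 scale (SE 0.65, adjusted p = 0.0318), and since both ectoderm libraries were at its floor the size is set by that floor. The call ended without the olfactory pit, epidermal ectoderm, caudal brain or floor plate (adjusted p from 0.0514 to 0.183) and with values as deposited (adjusted p = 0.0635). Without the library labelled medial nasal prominence its adjusted p was 0.0246, and 1.03% of all genes were called lower. Against mesenchyme of E9.5 and E10.5, 0 of 9 were called, with 1 at an unadjusted p under 0.05, and limma called 1.31% of all genes. Fbn1 had a log2 fold of -1.45 (SE 0.37, adjusted p = 0.0882). Without the library labelled medial nasal prominence it was called lower in ectoderm, by 3.06-fold (adjusted p = 0.00599), and 1.58% of all genes were called lower. The 2 ectoderm libraries differed among themselves. Postn, Lum and Hapln1 were at 13.1, 10.7 and 7.03 in epidermal ectoderm and at the floor in the olfactory pit, while Vcan was the reverse. Mesenchyme markers had summed levels of 31.2 and 21.3 in these 2 libraries, with 7 and 5 of 12 above the floor, and their part was not tested.

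Other matrix genes were taken from 8 lists by role, which had been drawn up with earlier results of these libraries known. Of 148 genes 109 were measured and 84 could be tested. In mesenchyme against neural epithelium over all stages 11 rose and 5 fell, with a median log2 fold of 0.32 against 0.01 for all genes and beside 2.55% higher and 1.75% lower among all genes. Leaving out the library labelled medial nasal prominence, 18 rose and 6 fell, beside 3.49% and 2.68% of all genes, and all 16 calls were kept. Microfibril partners of the fibrillins had 3 higher and 1 lower of 11 tested. Mfap4 (log2 fold 2.80, SE 0.53, adjusted p = 0.01) and Mfap2 (1.45, SE 0.28, adjusted p = 0.00987), small proteins bound to microfibrils, and Emilin1 (1.46, SE 0.32, adjusted p = 0.0194), a glycoprotein of elastic fibres, rose together with Fbn1. Ltbp4, which holds latent TGF-beta on microfibrils, fell by 1.23 on the log2 scale.

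In the hyaluronan network 0 of 10 tested genes rose and 2 fell, Ptprz1 (-2.70, SE 0.73), a receptor phosphatase of neural progenitors, and Hyal1 (-1.13, SE 0.25), a hyaluronidase. Versican-cleaving and other matrix proteases had 1 of 12 higher, Pcolce (2.70, SE 0.72), which speeds the trimming of procollagen. Biglycan (Bgn, 2.53, SE 0.59), like Lum a small leucine-rich proteoglycan, was the 1 called of 4 tested. Among 16 adhesive and matricellular glycoproteins 3 rose, namely the basement membrane linkers Nid1 (2.48, SE 0.39) and Nid2 (1.85, SE 0.51) and the Sparc relative Sparcl1 (2.08, SE 0.26). Frem2 (-1.50, SE 0.39) and Thbs1 (-1.07, SE 0.29) fell, and both are named here because their count was small, after their values were seen. Sdc3 (1.94, SE 0.29), a transmembrane heparan sulphate proteoglycan, was the 1 called of 12 surface proteoglycans, and Col3a1 (3.33, SE 0.72) and its chaperone Serpinh1 (1.28, SE 0.30) were the 2 called of 13 fibrillar collagen genes and their makers. Of 6 follistatin and spondin relatives of Fstl1 and Spon1, 0 were called.

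In neural epithelium 4 of the 84 genes rose from E8.5 to E10.5, a share near that of all genes, of which 4.58% rose. Of the 84, 1 fell, beside 6.03% of all genes. Those that rose were Col11a1 (2.86, SE 0.43), Nell2 (2.07, SE 0.49), Tmem2 (1.59, SE 0.42), a cell surface hyaluronidase, and Dip2a (1.09, SE 0.23). Frem2 fell by 1.80 on the log2 scale. In mesenchyme from E9.5 to E10.5 3 of 84 were called, beside 4.55% of all genes. Hyal1 (1.44, SE 0.33) and Ltbp4 (1.22, SE 0.29) rose and Serpinh1 fell by 1.50. Against neural epithelium, ectoderm had Npnt (1.74, SE 0.41) and Fras1 (1.62, SE 0.36), genes of the epithelial basement membrane, higher, beside 1.36% of all genes. Against mesenchyme, where 1.31% of all genes were called, it had Frem2 (2.40, SE 0.53) and Fras1 (1.99, SE 0.36) higher and Nid1 and Sparcl1 lower by 2.48 and 1.79. At E10.5 alone, limma called 0 of the 84 between mesenchyme and neural epithelium. With the library labelled medial nasal prominence left out, the counts higher and lower were 15 and 4 at E10.5, 6 and 4 between neural stages, 6 and 4 between mesenchyme stages, 4 and 3 in ectoderm against neural epithelium and 4 and 12 against mesenchyme. Among all 12851 genes they were, in the same order, 428 and 364, 794 and 1000, and 908 and 914. For ectoderm they were 343 and 132, then 288 and 203.

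The genes whose pattern was most like each matrix gene were found by Pearson correlation of log2 values over the 16 libraries among 5052 genes, as a description. The libraries share stage, tissue and the lower values of E10.5, and that labelled medial nasal prominence is included. Fbn1 was followed by Pdgfrb (r = 0.94), Fli1 (0.93) and Emcn (0.92), genes known from pericytes and endothelium. Hapln1 was most like Dlc1 (0.91) and Myl9 (0.89), Fbn2 like Lrig3 (0.88), Lpp (0.87) and Gpc3 (0.87), and Lum like Smoc1 (0.84), Nfil3 (0.81) and S100a10 (0.81). Postn was nearest to Col1a1 (0.78) and Slit3 (0.73), Sparc to Mex3b (0.83), Mknk1 (0.76) and Rgs3 (0.76), and Spon1 to Podxl (0.85) and Arl4a (0.85) after a predicted gene, Gm23517 (0.90). Vcan was nearest to Nsun3 (0.73) and Fstl1 to Gm23474 (0.82). Between the 9 genes, the highest correlation was that of Hapln1 with Lum (0.80), followed by Hapln1 with Fbn1 (0.67) and with Fbn2 (0.64). Hapln1 and Vcan, the chromosomal neighbours, had -0.29.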

How the data were processed

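The authors' deposited tables hold, for each library, a ratio of 15876 genes to the gene's own median over 16 libraries, as worked out from the values. Bowtie, TopHat, TopHat2 and Cufflinks, with build mm9, stand in the submitters' processing notes. No versions, annotation, strand setting, filters or origin of the floor were found in the labels or file headers. No counts were given, so no detection limit could be computed. The members and gene lists were chosen with earlier results of these data known.

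Folds come from limma 3.58.1 in R 4.3.3, fitted with trend and with 1 mean per stage and tissue group. Log2 ratios were centred in each library on the median of 7082 genes whose lowest value stands in 1 library. Genes above their lowest value in at least 3 libraries were tested two-sided, with Benjamini-Hochberg adjustment over 12851 genes. A group of 1 library borrows the spread of the others. The fit was tested on simulated data. Besides the members, up to 3 called genes per list in the main comparison, the largest of each list in the others, and the 3 genes most like each member could be named. Ltbp4, Frem2 and other called list genes outside this rule were named after their values were seen. Alternatives left values uncentred, dropped the filter or the trend, used log2(level + 1), or left out each library.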

Additional observations from a re-analysis of the deposited data

Results flagged for a closer look

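In the 4 E10.5 libraries of prominences and arches, Lum was at 2.45 in the maxillary arch and at the floor in the other 3, and Spon1 was at 3.01 in the library labelled medial nasal prominence and at the floor in the other 3. With the other 3 libraries tied at the floor, Dixon's ratio of gap to range is 1 for any value above it, so each was marked by construction and the usual chance rate of about 1 in 20 groups does not apply. The ratio was worked out for 9 groups.

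The difference between the mandibular and maxillary arches had opposite directions at E9.5 and E10.5 in 3 of the genes, with and without centring on the median gene. The log2 ratio of mandibular over maxillary was 0.18 and -1.23 for Hapln1, 0.31 and -1.29 for Lum, and -0.36 and 0.73 for Fbn2. Each value compares 1 library with 1 other, and the difference between stages was not tested.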

How the results depend on the processing

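None of the 5 calls on the 9 genes reversed under 21 alternatives. These list the fit without the library labelled medial nasal prominence both by itself and among the single libraries left out. That fit kept all 5 calls, so each count of kept calls below includes it in both places. Fbn1 kept its call in mesenchyme against neural epithelium in 19, Hapln1 in 14 and Spon1 in 8, Spon1 in ectoderm against neural epithelium in 16, and Sparc between neural stages in 8. The causes of lost calls were not tested.

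Counts of the 9 genes called moved as follows. In mesenchyme against neural epithelium over all stages, 1 rather than 2 was higher with log2(level + 1), where Fbn1 fell below 2-fold, and 0 rather than 1 was lower without the trend or with values as deposited. Leaving out single libraries gave 0 to 2 higher and 0 to 1 lower. At E10.5 the count higher went from 0 to 1 without the library labelled medial nasal prominence, and leaving out single libraries gave 0 to 1. Between neural stages 0 rather than 1 was higher without the trend, with log2(level + 1) or with values as deposited, and single libraries gave 0 to 1. Between mesenchyme stages 1 rather than 0 was lower, Hapln1, with log2(level + 1) or with values as deposited. In ectoderm against neural epithelium 0 rather than 1 was lower with values as deposited, and single libraries gave 0 to 1. In ectoderm against mesenchyme 1 rather than 0 was lower without the library labelled medial nasal prominence, and single libraries gave 0 to 1.

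Counts over all genes were less stable. Leaving out single libraries gave 382 to 793 genes in mesenchyme against neural epithelium (main 553), 0 to 792 at E10.5 (11), 582 to 1794 between neural stages (1363), 42 to 1822 between mesenchyme stages (585), 63 to 475 in ectoderm against neural epithelium (221) and 41 to 491 in ectoderm against mesenchyme (168). The highest of each came without the library labelled medial nasal prominence. With log2(level + 1) the counts were 311 over all stages, 6 at E10.5, 375 between mesenchyme stages and 779 between neural stages. The interaction called 8 genes without the trend, 10 with log2(level + 1) and 7 as deposited, and could not be fitted without E8.5 mesoderm. With values as deposited 0 genes were called at E10.5, 1669 between mesenchyme stages and 265 in ectoderm against mesenchyme. The share of calls that were higher went from 59.3% to 74.6% over all stages, 43.1% to 14.7% between neural stages, 50.3% to 3.48% between mesenchyme stages, 79.2% to 91.7% in ectoderm against neural epithelium and 74.4% to 89.4% against mesenchyme. The deposited median gene shifted by -0.53 (log2) between mesenchyme stages. The labels carry no replicate numbers, and a fit paired by arch between E9.5 and E10.5 was not run.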
